A study of Homo sapiens with 4 samples.

Results

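The mRNAs of the ferritin chains (FTH1 and FTL), the transferrin receptor (TFRC), the iron regulatory proteins (ACO1 and IREB2) and the ferritin turnover factor NCOA4 were examined in an RNA immunoprecipitation sequencing (RIP-seq) study of the RNA-binding protein QKI7, an isoform of QKI. They were picked by gene symbol from the deposited table, and all 6 were found among its 26830 gene rows. The cells were U2OS, a human osteosarcoma line, infected with a lentiviral pmiRNA1 construct for Flag-tagged QKI7, selected as GFP-positive and expanded in DMEM without further treatment. Every library came from cells that carried the transgene. The input group (n = 2) was RNA of the lysate with no antibody, and the Flag-RIP group (n = 2) was RNA recovered from the same kind of lysate, after ultraviolet cross-linking and sonication, with a Flag antibody. A mock precipitation was not analysed here. The labels do not say whether the replicates were separate cultures, and a p-value here therefore speaks only to the spread among these libraries, which may be technical.

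Cells balance iron largely after transcription. When iron is scarce, the iron regulatory proteins bind hairpins called iron-responsive elements (IREs). Binding in the 5′ untranslated region of the ferritin mRNAs blocks their translation, and binding in the 3′ untranslated region of the TFRC mRNA slows its decay. ACO1 loses its RNA binding when it holds an iron-sulfur cluster and then works as an aconitase, whereas IREB2 is degraded when iron is plentiful. QKI is a different kind of RNA-binding protein, of the STAR family, and binds single-stranded ACUAA-containing sequences.

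The hairpin is shown because it is the element through which the ferritin and TFRC mRNAs are known to be regulated. It could be read for FTL from the RefSeq start-site windows of GRCh38.p14, which reach 50 bases into the transcript. The stretch below lies on the plus strand at chr19:48965331-48965358, bases 23 to 50 after the annotated start, within the 5′ end of the FTL transcript. Capitals mark the hexanucleotide loop.

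FTL element: ctgtctcttgcttcaaCAGTGTttggac

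The 5 bases before the loop (ttcaa) pair with the 5 after it (ttgga), counting G with T as a pair. Windows were present for 5 of the 6 genes, FTH1 being the one without. Of all 35116 windows, 6.36% held CAGTGN on the sense strand in the 50 transcribed bases, but 18 (0.0513%) held it with 5 paired bases on each side, against 0.0399% on the opposite strand. One of the windows of NCOA4 held CAGTGN without the pairing, and those of TFRC, ACO1 and IREB2 did not hold it. These are matches of letters in short windows, and the 3′ end of TFRC was not searched.

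Values are TPM, a measure of transcript abundance. They are scaled per transcript length and are a share of each library. The libraries differed in what they shared out. The 7SL RNAs RN7SL1 and RN7SL2 took 79.7% to 84.6% of the TPM in input and 39.8% to 43.4% in Flag-RIP, while protein-coding rows took 4.97% to 6.24% and 12.3% to 13.4%. The ERCC spike-ins, synthetic RNAs added at a step and in an amount not given in the sources used here, took 2.78% to 3.89% and 18.9% to 25.6%. TPM holds no read depth, so counting error is unknown. QKI, the gene of the tagged protein, had 3.83 and 5.85 TPM in input and 60.7 and 42.0 in Flag-RIP, and reads of transgene and endogenous gene cannot be told apart. Of 8 mesenchymal or bone markers, 4 (VIM, COL1A1, SPARC and CDH2) had at least 1 TPM in both inputs, while TWIST1 was listed at 0 in all libraries and ALPL and COL1A2 stayed below 0.4. Blood markers reached at most 0.22 TPM.

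Nearly every mRNA also had a larger TPM share in Flag-RIP, and the part of these differences in that was not tested. The median ratio of mean Flag-RIP TPM to mean input TPM, called the recovery ratio here, was 3.32 over the 10415 tested genes (those averaging 1 TPM or more). Changes were therefore tested after the libraries had been shifted to a common median, on log2(TPM + 1), with limma and Benjamini-Hochberg adjustment over all tested genes. They are called centred changes, and 0 stands for the shift of the libraries' median gene. The scale understates the change of low genes, so the recovery ratio is given beside it. On the centred scale 16.4% of genes were higher and 24.4% lower at the 0.05 threshold, and the median change was -0.11. As deposited, without the shift, 92.3% were higher and 0.317% lower, with a median of 1.2.

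All 6 mRNAs were tested, although IREB2, below 1 TPM in both inputs, passed the filter through its Flag-RIP values. As deposited all 6 were higher in Flag-RIP, which sets them apart from few genes given the 92.3% above. Centred, TFRC rose and the other 5 did not pass, so 1 of 6 was higher and 0 lower (limma), a share close to the 16.4% and below the 24.4% of all genes. At an unadjusted p under 0.05 (limma) FTH1 and IREB2 were also lower. The share of all tested genes lower at that threshold is at least the 24.4% that passed after adjustment. The centred Flag-RIP values did not overlap the inputs for any of the 6, lying above them for TFRC and NCOA4 and below for the other 4. Over all tested genes 29.4% lay above and 47.3% below in this way. The median centred change of the 6 was -0.17, against -0.11 over all tested genes. The groups are precipitate and input of the same kind of lysate. A lower centred value therefore does not measure the number of cells with an mRNA or its amount per cell.

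**Figure D1:**
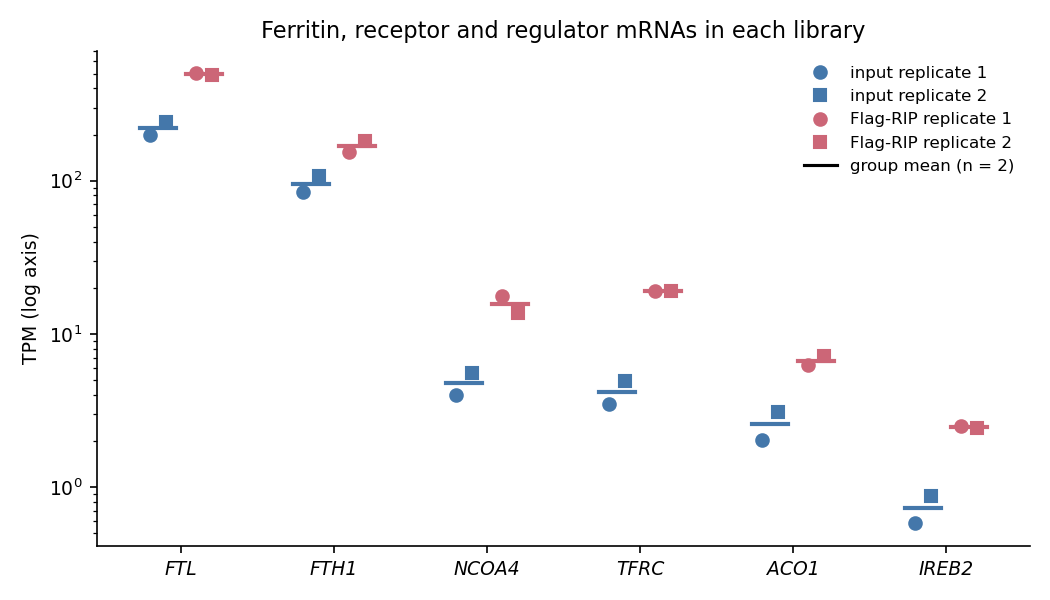
TPM of the 6 mRNAs on a log axis, in input (blue) and Flag-RIP (red), with circles for replicate 1, squares for replicate 2 and lines for the mean of n = 2. Both Flag-RIP values lie above both inputs for every gene, and NCOA4 and TFRC change places between the groups.

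FTL, the light chain that helps mineralise iron inside the ferritin shell, was the most abundant of the 6. Its TPM was 198 and 242 in input and 503 and 489 in Flag-RIP, or 219.8 ± 31.04 and 496 ± 9.77 (SD, n = 2). Both Flag-RIP values were above both inputs, as for 96.7% of tested genes. The recovery ratio was 2.26, and the ratios of single libraries ran from 2.02 to 2.54. This is below the median ratio, with 20.8% of tested genes lower, whereas 47.4% had a lower centred change. The centred change was -0.14 (SE 0.21, 95% interval -0.63 to 0.35, limma adjusted p = 0.61), and adjusted p ranged from 7.5e-06 as deposited to 0.93 over the alternatives. FTL lies on chromosome 19 from 48965309 to 48966879 (GRCh38.p14).

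FTH1, the heavy chain with the ferroxidase activity that oxidises iron on entry, had 83.9 and 108 TPM in input and 155 and 183 in Flag-RIP. Its means were 95.7 ± 16.7 and 169 ± 19.6, a recovery ratio of 1.76 that 9.49% of tested genes fell below. A lower centred change was seen in 18.0% of tested genes. The centred change was -0.50 (SE 0.20, 95% interval -0.98 to -0.02, limma adjusted p = 0.085), with adjusted p from 1.2e-05 to 0.75 over the alternatives. FTH1 therefore had the lowest recovery of the 6, but it did not pass at a common median. The call depended on the setting: it was lower with a pseudocount of 0.1 (-0.90, limma adjusted p = 0.021) and with the 20 most abundant rows left out (-0.47, limma adjusted p = 0.029), and had the opposite sign with a pseudocount of 5 (0.12, limma adjusted p = 0.75).

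The ferritin mRNAs were among the most abundant messages of these cells. Among 18786 protein-coding rows FTL ranked 37 and 27 in the inputs and 21 and 17 in Flag-RIP, so its rank was higher in both precipitates. FTH1 ranked 98 and 84 in input and 92 and 74 in Flag-RIP, and these overlap. Together the chains made up 0.566% and 0.56% of the protein-coding TPM in input and 0.491% and 0.545% in Flag-RIP.

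Abundant genes as a class had low recovery ratios, which bears on how the ferritin values read. Over the 242 tested genes that averaged 50 TPM or more the median ratio was 1.73 (quartiles 1.09 and 2.96). In that class 45.9% of genes were lower and 19.8% higher after centring. The ratio of FTH1 was above that of 51.2% of the class and the ratio of FTL above that of 66.9%. The part of level in the ferritin values was not tested beyond this. The class limits of 5 and 50 TPM were chosen after the values were seen.

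FTH1 has pseudogene copies, and reads can be divided between them. FTH1P3 had 0.15 and 0.22 TPM in input and 2.60 and 3.17 in Flag-RIP, a recovery ratio of 15.6. It passed the filter through its Flag-RIP values alone, so its ratio and the tests below rest on the values that admitted it. Its centred change of 0.39 did not pass (limma adjusted p = 0.12), on a log2(TPM + 1) scale that compresses such low values. With no filter the same change passed (limma adjusted p = 0.04). With a pseudocount of 0.1 the centred change was 1.67 (limma adjusted p = 0.0083), and with a pseudocount of 5 it was -0.06 (limma adjusted p = 0.55). As deposited the change was 1.71 (limma adjusted p = 8.6e-13), in a setting where 92.3% of tested genes were higher. FTH1P3 made up 0.178% and 0.204% of the sum of both rows in input and 1.65% and 1.71% in Flag-RIP. The sum had a recovery ratio of 1.79, against 1.76 for FTH1 alone. FTHL17 and the mitochondrial ferritin FTMT were listed at 0 in all libraries, and FTH1P18 and FTLP10 did not exceed 0.11. The annotated span of FTH1, chromosome 11 from 61964285 to 61967634, overlaps BEST1, which stayed below 0.5 TPM.

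TFRC, the receptor that carries transferrin-bound iron into the cell, was the one mRNA of the group called higher after centring. It had 3.49 and 4.90 TPM in input and 19.05 and 18.95 in Flag-RIP, or 4.195 ± 0.997 and 19.0 ± 0.071 (SD, n = 2). The Flag-RIP libraries were nearly equal and both far above the inputs. The recovery ratio was 4.53, from 3.87 to 5.46 between single libraries, and exceeded that of 74.4% of tested genes. The centred change was 0.64 (SE 0.12, limma adjusted p = 0.0056), larger than that of 92.0% of tested genes. Its size depended on the pseudocount, with 0.45 at 0.1 (limma adjusted p = 0.03) and 0.72 at 5 (limma adjusted p = 9.8e-05). Adjusted p ranged from 7.3e-09 to 0.16 over the alternatives.

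The call of TFRC held without either precipitate library but not without either input. Without Flag-RIP replicate 1 it was 0.68 and without replicate 2 it was 0.61, both past the threshold. Without input replicate 1 it was 0.64 with a limma adjusted p of 0.072, and without input replicate 2 it was 0.64 with 0.051. With protein-coding rows alone, rescaled to the same total, it was 0.99 (SE 0.22, limma adjusted p = 5.2e-05), on a scale where 46.0% of genes were higher and 6.6% lower. On the spike-in scale the change was -0.50, with a limma adjusted p of 0.16. The rank among protein-coding rows moved from 2072 and 2166 in input to 1268 and 1128 in Flag-RIP, a measure that does not use the scaling. TFRC lies on chromosome 3 from 196049284 to 196082090.

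ACO1, iron regulatory protein 1, had 2.04 and 3.08 TPM in input and 6.22 and 7.11 in Flag-RIP. The groups did not overlap, and the recovery ratio of 2.60 was above that of 29.9% of tested genes. The centred change was -0.20 (SE 0.12, 95% interval -0.47 to 0.07, limma adjusted p = 0.20), with adjusted p from 0.00027 to 0.75 over the alternatives. Without Flag-RIP replicate 2 it was -0.32 and passed (limma adjusted p = 0.010). It stood further down the ranks of protein-coding rows in both precipitates, at 3494 and 3493 in input and 4520 and 3788 in Flag-RIP. ACO1 lies on chromosome 9 from 32384643 to 32454769.

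IREB2, iron regulatory protein 2, was the rarest of the 6, with 0.58 and 0.87 TPM in input and 2.49 and 2.41 in Flag-RIP. The recovery ratio of 3.38 was close to the median of 3.32, and 51.8% of tested genes were below it. On the centred scale its change was -0.31 (SE 0.13, limma adjusted p = 0.094), with adjusted p from 6e-05 to 0.69 over the alternatives. The sign was negative at every pseudocount, with -0.07 at 0.1 and -0.29 at 5, where it passed (limma adjusted p = 0.0063). It turned with the scaling, to 1.01 as deposited (passing), 0.46 with the 20 most abundant rows left out (limma adjusted p = 0.24) and 0.55 with protein-coding rows alone (limma adjusted p = 0.086). A direction for IREB2 relative to other genes is therefore not settled here. IREB2 lies on chromosome 15 from 78437431 to 78501453.

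NCOA4, the receptor that delivers ferritin to the autophagosome for breakdown, had 3.96 and 5.54 TPM in input and 17.6 and 13.6 in Flag-RIP. Flag-RIP replicate 1 was the higher of the precipitates, and both were above the inputs. The recovery ratio of 3.29 was again near the median, with 49.3% of tested genes below it. The centred change was 0.22 (SE 0.13, 95% interval -0.10 to 0.53, limma adjusted p = 0.23), with adjusted p from 4.2e-06 to 0.94 over the alternatives. It passed without Flag-RIP replicate 2 (0.35, limma adjusted p = 0.045), with a pseudocount of 5 (0.41, limma adjusted p = 0.0060) and with protein-coding rows alone (0.52, limma adjusted p = 0.040). With a pseudocount of 0.1 it was -0.02. NCOA4 lies on chromosome 10 from 46005088 to 46030623.

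**Figure D2:**
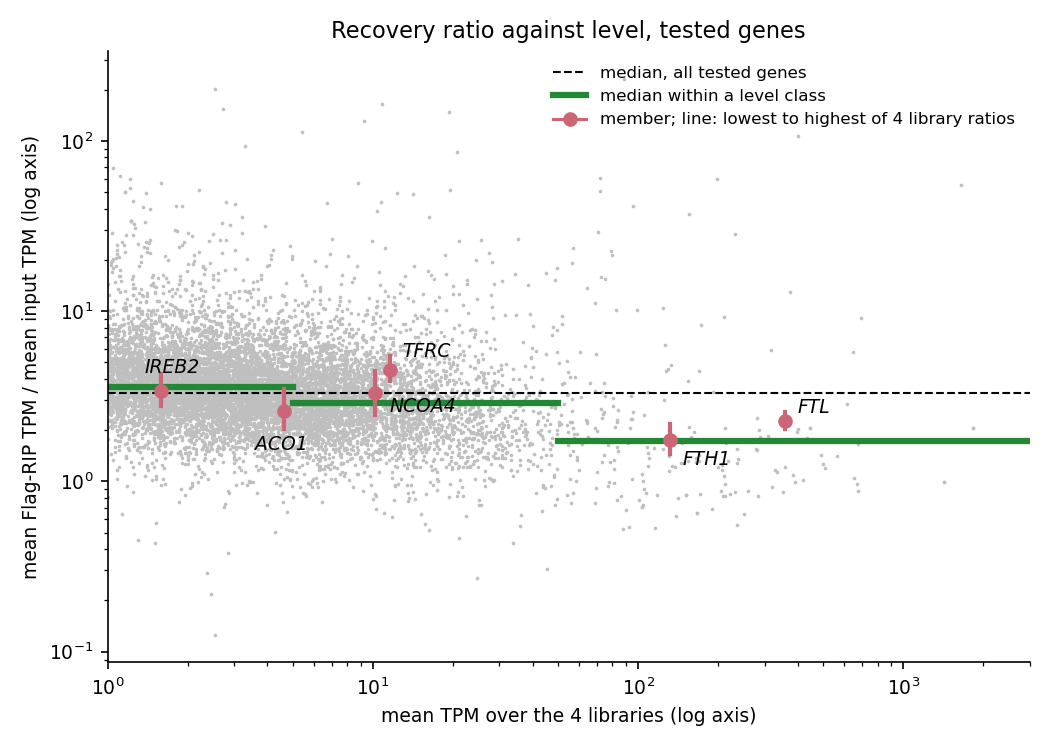
Recovery ratio (mean Flag-RIP TPM over mean input TPM) against mean TPM for the tested genes (grey), both on log axes, with the 6 mRNAs in red and lines from the lowest to the highest of the 4 library ratios. The dashed line is the median of all tested genes, 3.32, and green lines are the medians of level classes, 3.6 from 1 to 5 TPM, 2.89 from 5 to 50 and 1.73 above. TFRC lies above both lines, and genes outside the axes are not drawn.

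Set against genes of like level, TFRC had a ratio above that of 81.6% of the 3755 genes with a mean TPM of 5 to 50, and NCOA4 above that of 60.8%. Among the 6418 genes of 1 to 5 TPM, the ratio of IREB2 was above 44.2% and that of ACO1 above 21.9%. These shares describe the libraries and were not tested.

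The plain ratio of a pair of mRNAs inside a library does not depend on how libraries are scaled. In input there were 24.0 and 21.9 FTH1 transcripts for each TFRC transcript, by TPM, and in Flag-RIP 8.13 and 9.64. For FTL over TFRC the values were 56.7 and 49.3 in input and 26.4 and 25.8 in Flag-RIP. Ferritin was thus less dominant over the receptor in both precipitates. On log2(TPM + 1) the FTH1 to TFRC ratio was 4.22 in input and 3.08 in Flag-RIP, a difference of -1.14, and that of FTL to TFRC differed by -0.78. The sizes depended on the pseudocount, and at 5 they were -0.60 and -0.23. With 2 libraries against 2 the exact permutation test, two-sided, cannot give a p below 0.333, which both reached. In all, 15 pairs were compared on log2(TPM + 1), which unlike the plain ratio depends on the scaling. On it 12 did not overlap between groups, and the smallest adjusted p was 0.416 (exact permutation test). Plain ratios sorted some pairs otherwise. Those of IREB2 over NCOA4 (0.146 and 0.157 in input, 0.141 and 0.177 in Flag-RIP) and of ACO1 over NCOA4 overlapped. Those of FTH1 over IREB2 and ACO1 over IREB2, which overlapped on log2(TPM + 1), were apart. The share apart among pairs of other tested genes was not computed, and pairs that share a gene are not independent. Single genes often separated too, with 29.4% of tested genes above and 47.3% below after centring.

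The chains of ferritin also shifted against each other. FTH1 over FTL was 0.424 and 0.445 in input and 0.308 and 0.374 in Flag-RIP, a log2 difference of -0.36 (exact permutation p = 0.333). Light chain mRNA thus outnumbered heavy chain mRNA in every library, and by more in the precipitates. Part of the FTH1 reads may be in pseudogene rows, although adding FTH1P3 moved the recovery ratio of FTH1 from 1.76 to 1.79.

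TFRC and NCOA4 were at similar levels and changed order. TFRC over NCOA4 was 0.881 and 0.884 in input and 1.08 and 1.39 in Flag-RIP. In input their ranges over libraries overlapped, so the order NCOA4 before TFRC rests on the comparison within each library. All other neighbours in the order FTL, FTH1, NCOA4 and TFRC, ACO1, IREB2 were apart in both groups. TFRC over ACO1 was 1.71 and 1.59 in input and 3.06 and 2.67 in Flag-RIP, and TFRC over IREB2 was 6.02 and 5.63 against 7.65 and 7.86. TFRC gained on each of the other 5 mRNAs in both precipitates. The regulators kept a ratio of ACO1 over IREB2 of 3.52 and 3.54 in input, with 2.5 and 2.95 in Flag-RIP. On log2(TPM + 1) that pair went the other way by 0.11 and overlapped, and FTL over IREB2 likewise differed by 0.17 although its plain ratio fell from 341 and 278 to 202 and 203.

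**Figure D3:**
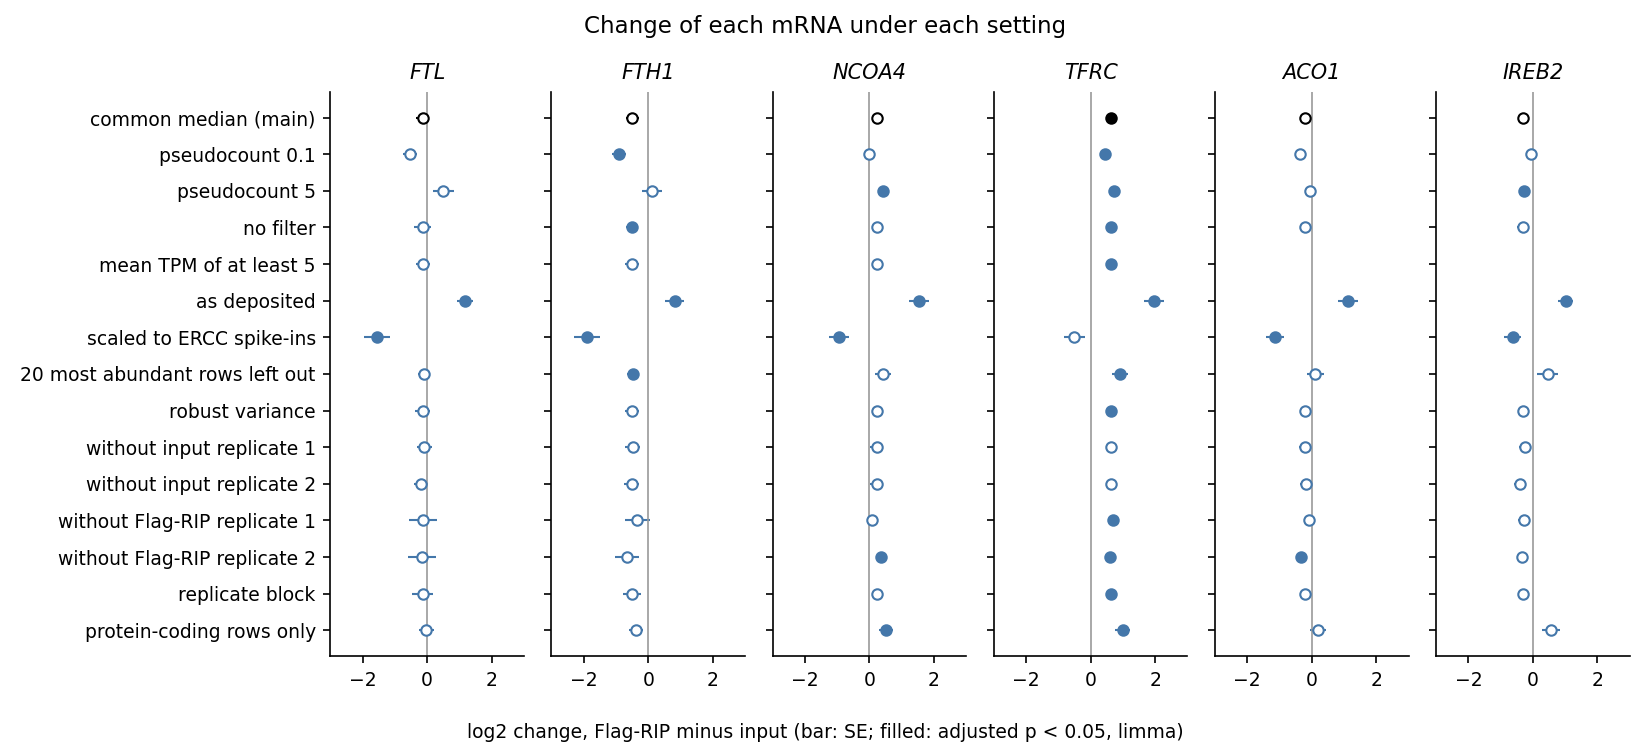
Log2 change (Flag-RIP minus input, with SE) of each mRNA under every setting, filled where the limma adjusted p is under 0.05. TFRC is to the right of 0 in all settings except the spike-in scale (-0.50), while the others lie on either side of 0 depending on the scale.

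The genes with the most similar pattern over the 4 libraries were found by the distance between centred log2 values after each gene's mean was removed. For TFRC these were ZMAT2 (distance 0.019) and BRD1 (0.021), and 43 tested genes were within 0.1. For FTH1 they were GPR108 (0.017) and XRCC1 (0.018), with 166 within 0.1. For FTL they were EEF2KMT (0.009) and TNIK (0.011), with 374 within 0.1. For NCOA4 they were BCOR (0.010) and ZNF106 (0.011), for ACO1 USP47 (0.020) and SNRPD3 (0.027), and for IREB2 HEATR5A (0.012) and PIK3R4 (0.017). With 4 libraries many genes share any pattern, and no other gene of the 6 was among these neighbours.

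Other mRNAs known or reported to carry an IRE were also compared, as were 4 lists of iron-handling genes. Decreases in them are relative to the median gene, since as deposited 0 of their genes passed as lower (limma, and 0 at an unadjusted p under 0.05). On the spike-in scale the rises given below for CDC42BPA, PCBP2, HERC2, NDOR1, FAM96A and PGRMC1 had the opposite sign. Those of FAM96B (0.17, limma adjusted p = 0.66) and SLC25A37 (0.07, limma adjusted p = 0.82) kept their sign but did not pass there. The counts of each list below are to be read against the 16.4% of all tested genes that were higher and the 24.4% that were lower after centring. Of 6 listed, 3 were tested, and 1 rose and 0 fell (limma, and the same at an unadjusted p under 0.05), with a median centred change of 0.54. All 3 were higher as deposited, with protein-coding rows alone and with the 20 most abundant rows left out. Over all genes 92.3%, 46.0% and 3748 of 10402 were higher in these settings. On the spike-in scale 0 were higher and 0 lower (0 also at an unadjusted p under 0.05), against 319 and 6306 of 10415 genes. CDC42BPA, a kinase of the cytoskeleton, had 0.84 and 1.5 TPM in input and 8.26 and 6.65 in Flag-RIP. Its centred change was 0.66 (SE 0.11, limma adjusted p = 0.0037), a call lost without input replicate 1 (0.63), and its recovery ratio was 6.37. The oxygen-regulated factor EPAS1 had 0.74 and 1.3 against 9.68 and 3.90 TPM and did not pass (0.54, limma adjusted p = 0.16), with 1.06 (passing) without Flag-RIP replicate 2 and 0.01 (limma adjusted p = 0.93) without replicate 1, so the change rested on replicate 1. With a replicate block EPAS1 passed (0.54, limma adjusted p = 0.045), which made 2 higher in the list. The iron importer SLC11A2 had 0.52 and 0.74 against 4.52 and 2.75 TPM. Its centred change was 0.17, with 0.41 without Flag-RIP replicate 2 and -0.07 without replicate 1. With a mean of 0.63 TPM in input, SLC11A2 passed the filter through its Flag-RIP values alone. Its recovery ratio of 5.77 and its tests therefore rest on the values that admitted it. SLC11A2 is named to complete the list, after its values were seen. SLC40A1, the iron exporter, CDC14A and ALAS2 were below the filter.

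Genes of iron uptake and transport went both ways. Of 15 listed, 5 were tested, and 1 rose and 2 fell, with a median centred change of 0.09, against 16.4% and 24.4% of all tested genes. As deposited 4 were higher, against 92.3% of all tested genes. SLC39A14, a zinc and iron importer, fell by 0.79 (4.39 and 5.88 to 7.60 and 7.97 TPM, limma adjusted p = 0.0025), and MCOLN1, a lysosomal cation channel, by 0.72 (limma adjusted p = 0.0061). These are decreases relative to other genes, since both had a larger TPM in Flag-RIP, with recovery ratios of 1.52 and 1.99. SLC25A37, the mitochondrial iron importer mitoferrin, named after its value was seen, rose by 0.66 (0.71 and 1.3 to 7.16 and 6.51 TPM, limma adjusted p = 0.0024). All 3 calls were lost without input replicate 1 (-0.77, -0.61 and 0.65). That of MCOLN1 was also lost with protein-coding rows alone (-0.20, limma adjusted p = 0.55) and with the 20 most abundant rows left out (-0.28, limma adjusted p = 0.47). Transferrin itself (TF) did not exceed 0.06 TPM.

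Among genes that control the iron regulatory proteins or chaperone iron, 8 of 10 were tested, and 2 rose and 3 fell, with a median of -0.23, against 16.4% and 24.4% of all tested genes. As deposited 8 were higher, against 92.3% of all tested genes. With protein-coding rows alone 2 were higher and 0 lower (limma, and 0 lower at an unadjusted p under 0.05). Over all genes 46.0% were higher and 6.6% lower in that setting. The list had the same counts with the 20 most abundant rows left out, against 3748 and 730 of 10402 genes. With a pseudocount of 0.1 the list had 0 higher (0 also at an unadjusted p under 0.05) and 4 lower. Over all 10415 genes the counts were then 2009 and 2649. PCBP2, a poly(C)-binding protein that also hands iron to ferritin, went from 15.7 and 24.6 to 105 and 72.5 TPM, a rise of 0.78 (SE 0.21, limma adjusted p = 0.020). The call of PCBP2 did not hold without input replicate 1 (0.67), without input replicate 2 (0.89) and without Flag-RIP replicate 1 (0.55). HERC2, a ubiquitin ligase for NCOA4, rose by 0.49. The subunits of the ubiquitin ligase that degrades IREB2 fell, CUL1 by 0.58, SKP1 by 0.47 and RBX1 by 0.34. CUL1, with a mean of 0.83 TPM in input, passed the filter through its Flag-RIP values alone. HERC2, SKP1 and RBX1 are named after their values were seen, and all of these calls were lost without input replicate 1 or 2 (0.42 and 0.55 for HERC2, -0.52 and -0.64 for CUL1, -0.37 and -0.56 for SKP1, -0.34 and -0.33 for RBX1). With protein-coding rows alone CUL1 had 0.12 and RBX1 0.23, with the opposite sign, and SKP1 had -0.08 (limma adjusted p = 0.78). With the 20 most abundant rows left out SKP1 had -0.17 (limma adjusted p = 0.61). FBXL5, the iron-sensing subunit of that ligase, was below the filter, with 0.19 and 0.33 TPM in input and 1.01 and 1.35 in Flag-RIP.

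Iron-sulfur cluster assembly was the largest group. Of 28 genes 25 were tested, and 3 rose and 15 fell, against 16.4% and 24.4% of all tested genes, with a median centred change of -0.44 and a median recovery ratio of 2.39. Of the 25, 6 passed the filter through their Flag-RIP values alone. As deposited 22 were higher and 0 lower, against 92.3% and 0.317% of all tested genes. FAM96B (now CIAO2B), which targets clusters to cytosolic proteins, went from 5.24 and 5.85 to 51.8 and 34.0 TPM, a rise of 1.40 (SE 0.20, limma adjusted p = 0.0024). FAM96A (now CIAO2A), which is known to act on ACO1, rose by 0.36 and the electron donor NDOR1 by 0.64. FAM96A and NDOR1 are named after their values were seen. With a pseudocount of 0.1 FAM96A had 0.27 and did not pass (limma adjusted p = 0.088). BOLA2 fell by 0.98 (4.12 and 4.24 to 4.97 and 6.13 TPM), and its reads may be divided with the near-identical copy BOLA2B. The counts were 1 higher and 1 lower without input replicate 1, where the calls of BOLA2 (-0.80), FAM96A (0.31) and NDOR1 (0.53) were lost, and 6 lower without input replicate 2, where that of FAM96A was lost (0.40). With protein-coding rows alone 5 were higher and 2 lower, against 46.0% and 6.6% of all genes. With the 20 most abundant rows left out 4 were higher and 2 lower, against 3748 and 730 of 10402 genes.

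Of 17 genes of heme synthesis and breakdown 13 were tested, and 1 rose and 7 fell, with a median of -0.33. Over all tested genes 16.4% were higher and 24.4% lower, so lower calls outnumbered higher ones there too. The count depended on the scaling. As deposited 9 were higher and 0 lower, against 92.3% and 0.317% of all tested genes. With the 20 most abundant rows left out 2 were higher and 3 lower, against 3748 and 730 of 10402 genes. With protein-coding rows alone 2 were higher and 4 lower, against 46.0% and 6.6%. In the last 2 settings lower calls outnumbered higher ones in the list but not over all genes. With a pseudocount of 0.1 the list had 0 higher (0 also at an unadjusted p under 0.05) and 8 lower. PGRMC1, given below, was then 0.48 and did not pass (limma adjusted p = 0.12). BLVRB, a biliverdin reductase, had 15.5 and 15.4 TPM in input and 11.9 and 11.8 in Flag-RIP, and its centred change was -1.68 (SE 0.16, limma adjusted p = 0.00085). Its recovery ratio was 0.766, which 0.528% of tested genes fell below, although as deposited its change of -0.36 did not pass (limma adjusted p = 0.28). PPOX, an enzyme of heme synthesis, fell by 0.99 (limma adjusted p = 0.0034), a call lost without input replicate 1 (-0.81) and with the 20 most abundant rows left out (-0.70, limma adjusted p = 0.056). PGRMC1, a heme-binding membrane protein named after its value was seen, rose by 0.62 (2.84 and 3.55 to 18.6 and 12.1 TPM) and did not pass without input replicate 1 (0.69) or 2 (0.54). Without input replicate 1 the count of lower heme genes was 2.

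**Figure D4:**
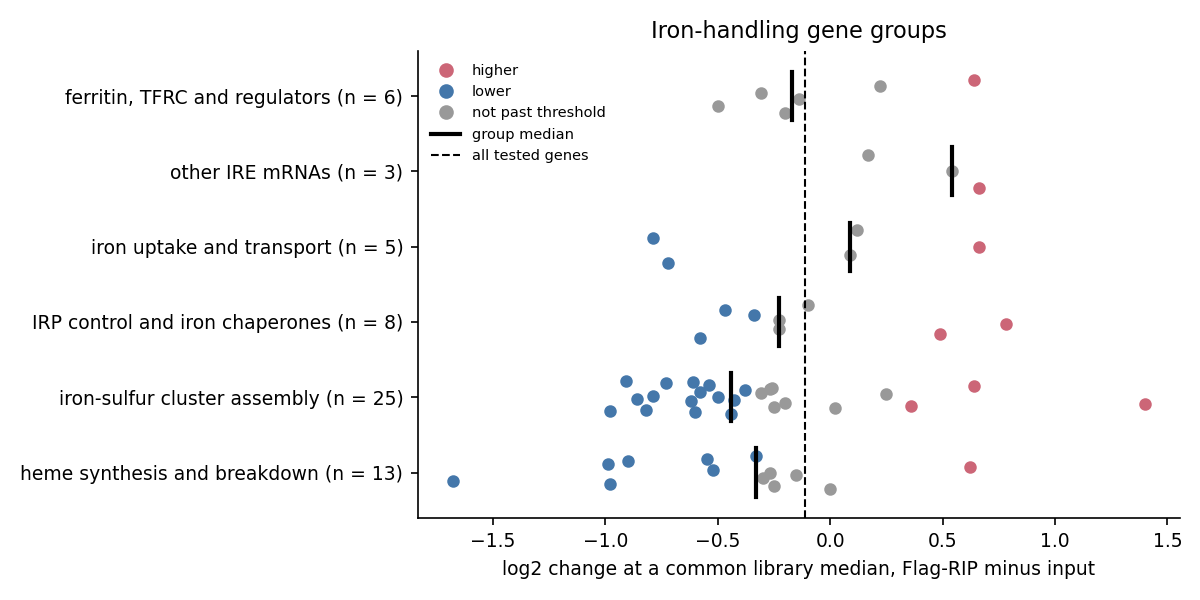
Centred log2 change of each tested gene in 6 iron-handling groups, with red for higher, blue for lower and grey for genes not past the threshold (limma), bars for group medians and a dashed line for the median of all tested genes (-0.11). TFRC is the 1 red point of the first row, and most iron-sulfur cluster genes lie left of the dashed line.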

How the data were processed

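RNA of 2 input and 2 Flag-RIP libraries of U2OS cells was compared. The authors deposited 1 table of TPM values, 1 column per library, made with STAR and RSEM version 1.2.31 on GRCh38 per the submitters' processing notes. The sources used here do not give its annotation, filters or strand setting. TPM holds no depth: the columns, of 26830 gene rows and 92 ERCC rows, each total 1000000 within rounding. ERCC rows were left out of the tests.

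Libraries were shifted to a common median over the 10415 genes averaging 1 TPM or more. The change was fitted on log2(TPM + 1) with limma 3.58.1 in R 4.3.3 (eBayes with trend, prior degrees of freedom 5.72, two-sided). In simulated data of the same 10415 genes and comparison, 100% of 4-fold and 94.8% of 2-fold changes were recovered, with 4.19% of calls false. The simulated spread was equal in all genes and libraries. In each run 200 genes changed, drawn from those above a level cut, with as many up as down. The real libraries had 1703 higher and 2545 lower calls, so these rates need not hold for them. Alternatives were pseudocounts of 0.1 and 5, no filter or a minimum of 5, values as deposited, spike-in scaling, leaving out the 20 most abundant rows, robust variance, each library left out, a replicate block and, chosen after seeing the data, protein-coding rows only.

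Named genes were the 6 mRNAs, QKI, their 2 nearest patterns each, and in each list the 2 largest centred changes past the threshold, or otherwise the highest mean TPM. The members and lists were chosen with earlier results of these data known. Symbols were matched to RefSeq for 23987 rows directly and 1395 by synonym. One listed gene is not reported here.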

Additional observations from a re-analysis of the deposited data

How the results depend on the processing

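TFRC kept its direction in 13 of 14 alternatives and passed in 11, and its change ran from 0.61 to 0.68 with 1 library left out. The other mRNAs changed call or sign with the scale. As deposited the changes were 0.82 for FTH1, 1.18 for FTL, 1.12 for ACO1, 1.01 for IREB2 and 1.53 for NCOA4, all passing. Scaled to the spike-ins they were -1.91, -1.56, -1.14, -0.63 and -0.94, all passing, and -0.50 for TFRC. With the 20 most abundant rows left out they were -0.47 for FTH1 (passing), 0.11 for ACO1 and 0.46 for IREB2, and with protein-coding rows alone 0.20 for ACO1, 0.55 for IREB2 and 0.52 for NCOA4 (passing). A pseudocount of 5 gave 0.12 for FTH1, 0.50 for FTL, -0.29 for IREB2 and 0.41 for NCOA4, the last 2 passing, and 0.1 gave -0.90 for FTH1 (passing) and -0.02 for NCOA4. With no filter FTH1 passed at -0.50. With 1 library left out ACO1 ran from -0.32 to -0.08 and NCOA4 from 0.08 to 0.35. The cause was not tested.

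Differences in log2 ratio between members turned with the pseudocount. At 5 they were 0.16 for FTH1 over ACO1, 0.41 for FTH1 over IREB2 and 0.08 for FTL over NCOA4. At 0.1 they were -0.19 for FTL over ACO1, -0.47 for FTL over IREB2 and -0.28 for ACO1 over IREB2. FTH1 over TFRC and FTL over TFRC kept their sign, with -0.60 and -0.23 at 5 and -1.35 and -0.99 at 0.1.

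Over all genes, 1703 were higher and 2545 lower, so 40.1% of calls were higher. That share was 99.7% as deposited (9608 and 33, median change 1.2), 4.82% scaled to the spike-ins (319 and 6306, median -0.76), 83.7% without the 20 most abundant rows (3748 and 730, median 0.45) and 87.5% with protein-coding rows alone (4359 and 625, median 0.50). A minimum of 5 TPM gave 1130 and 986, and no filter 15502 lower. With 1 library left out, counts ran from 332 to 2294 higher and from 322 to 3184 lower, lowest without input replicate 1, and were 747 and 987 without input replicate 2.

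Other genes changed sign as follows. As deposited SLC39A14 had 0.53, MCOLN1 0.60, CUL1 0.74, BOLA2 0.33, PPOX 0.32, SKP1 0.85 and RBX1 0.98. Scaled to the spike-ins CDC42BPA had -0.01, PCBP2 -0.58, SLC11A2 -0.14, EPAS1 -0.03, HERC2 -0.68, NDOR1 -0.35, FAM96A -0.62 and PGRMC1 -0.45. With a pseudocount of 5 FTH1P3 had -0.06 and SLC11A2 -0.06. Without the 20 most abundant rows CUL1 had 0.03 and RBX1 0.14, and with protein-coding rows alone 0.12 and 0.23. In these settings SKP1 (-0.17 and -0.08) and MCOLN1 (-0.28 and -0.20) did not pass. SLC11A2 had -0.07 without Flag-RIP replicate 1.

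The replicate numbers are shared between groups, but no label says that they mark a culture or day, and same-numbered deviations correlated at -0.0673 across genes. A replicate block gave 1720 higher and 2457 lower genes, TFRC at 0.64 (limma adjusted p = 0.0064), and no changed call among the 6 mRNAs. Among the other named genes it changed the call of EPAS1, which passed (limma adjusted p = 0.045). Depth is unknown, so the precision of low values such as IREB2 cannot be given.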
